A study of Mus musculus with 6 samples.

Results

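Integrins are cell surface receptors made of 1 alpha and 1 beta chain, which hold cells to matrix proteins and to ligands on other cells and carry signals in both directions across the membrane. In bone marrow, developing B cells are held to stromal cells through integrins, and later the set of chains on a B cell helps to decide which tissues it can enter. The 9 integrin genes described here are Itga4, Itga5, Itga6, Itgal and Itgax, which encode alpha chains, and Itgb1, Itgb2, Itgb3 and Itgb7, which encode beta chains. They were taken by gene name from a table of 22098 gene names, and each had 1 transcript row.

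RNA levels were compared between IgM-positive B cells of Ikaros ZnF1 mutant mice, Ikaros ZnF4 mutant mice and wild-type mice, with 2 libraries per genotype. Ikaros, the product of Ikzf1, is a lymphocyte transcription factor that binds DNA through zinc fingers, and the labels mark the mutants as Ikaros_ZnF1-/- and Ikaros_ZnF4-/-, that is, without finger 1 or finger 4. All mice were on the C57BL/6 background and 6 weeks old, and the cells were sorted from bone marrow. The comparisons ask which genes differ in level when either finger is missing. The labels do not say that the libraries of a genotype came from different animals, so p-values cover the spread among these libraries alone. For wild type this spread may be technical.

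Values are RPKM, read numbers divided by transcript length and by the library's read total, so levels of different genes can be set side by side. Fold changes are differences on the log2(RPKM + 0.5) scale from limma, fitted to all 6 libraries, and a gene passed at an adjusted p under 0.05 over the 10322 genes with a mean of at least 1 RPKM. The 7 B cell markers examined were high in every library, with summed levels between 10181 and 14524 RPKM. The 6 T cell markers summed to between 3.5 and 5.9 RPKM. Of these, Cd3e was at 0.7 RPKM or less and Cd5 was highest, between 2.0 and 4.2 RPKM. Cd8a was at 1.2 and 1.5 RPKM in ZnF1 mutant cells and at 0.2 RPKM or less elsewhere. ZnF1 replicate 2 stood apart: its 14 granulocyte markers summed to 8042 RPKM, against 1494 RPKM in ZnF1 replicate 1, 1832 and 2027 RPKM in ZnF4 mutant cells, and 472 and 765 RPKM in wild type. All 14 had a positive fold change in each mutant and 0 passed. The 8 erythroid markers summed to 581 RPKM in ZnF1 replicate 2 and to between 85.4 and 216 RPKM elsewhere. All 8 also had a positive fold change in each mutant and 0 passed. The 6 NK cell markers summed to 19.6 RPKM in ZnF1 replicate 2 and to between 2.5 and 7.5 RPKM elsewhere. Replicate 2 of each mutant carried RNA of the Y-linked gene Ddx3y and listed the female-specific Xist at 0, whereas the other 4 libraries had Xist and listed Ddx3y at 0. The libraries of each mutant thus came from mice of different sex. Ikzf1 was at 201 and 168 RPKM in ZnF1 mutant cells, 287 and 244 RPKM in ZnF4 mutant cells, and 177 and 179 RPKM in wild type; a value over the whole transcript does not test whether a finger is missing.

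The 9 genes formed a steep order of levels. Itgb2, Itgal, Itgb7 and Itga4 were highest, with means over all 6 libraries of 65.4, 61.3, 53.1 and 48.4 RPKM, and between 88.6% and 92.8% of the tested genes lay below them. Itgb1 followed at 21.1 RPKM, Itgb3 at 13.7 RPKM and Itga6 at 5.67 RPKM. Itga5 and Itgax averaged 0.75 and 0.417 RPKM, did not reach the minimum of 1 RPKM and were not tested, which left 7 of the 9 genes. The libraries of Itga4, Itgb1, Itgb3 and Itga6 did not overlap with those of the next gene in this order in any genotype. Among the highest 4 genes they overlapped between neighbours in wild type, so the order within that group is not set by these data.

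**Figure D1:**
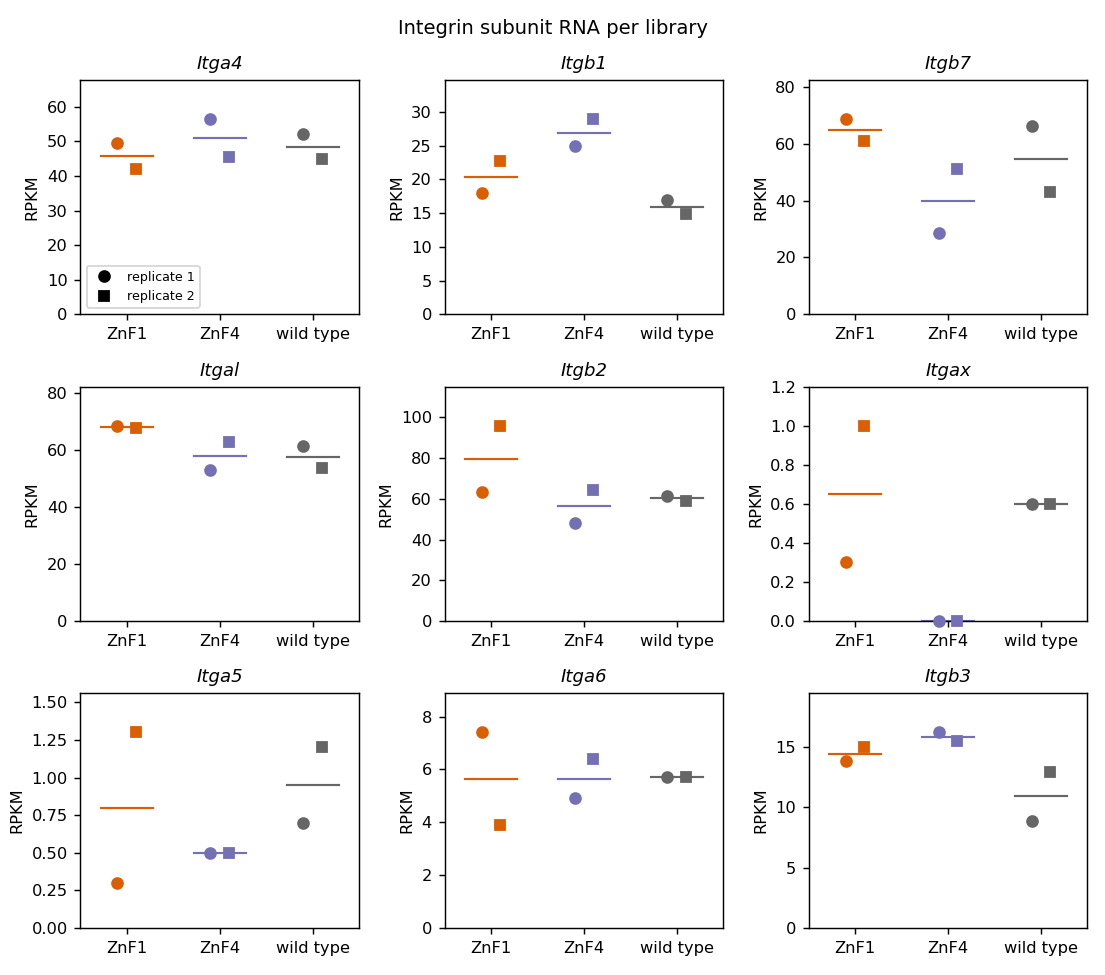
RNA level of each integrin gene in RPKM (vertical axes, each from 0) in ZnF1 mutant, ZnF4 mutant and wild-type libraries, where circles are replicate 1, squares replicate 2 and lines the mean of the pair. Both ZnF4 libraries of Itgb1 (24.9 and 29.0 RPKM) lie above all other libraries, and Itgax is listed at 0 in both ZnF4 libraries.

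None of the 9 integrin genes was called in any comparison. Of the 7 tested, 0 were called in ZnF1 mutant cells by limma, where 0.271% of all tested genes were, 0 in ZnF4 mutant cells, where 3.20% were, and 0 between the mutants, where 4.78% were. At an unadjusted p under 0.05 the counts were 0 of 7 in ZnF1 mutant cells (11.9% of all tested genes), 2 of 7 in ZnF4 mutant cells (17.4%) and 2 of 7 between the mutants (20.0%). The 2 in ZnF4 mutant cells were Itgb1 and Itgb3, and the 2 between the mutants were Itgb7 and Itgb1. The libraries of 4 of the 7 genes (Itgal, Itgb1, Itgb2 and Itgb3) lay above wild type without overlap in ZnF1 mutant cells, as did 21.1% of all tested genes, and 0 lay below, against 20.3%. In the ZnF4 mutant 2 of 7 lay above (Itgb1 and Itgb3), against 23.1% of all tested genes, and 0 below, against 27.2%. Between the mutants, 2 of 7 were higher in ZnF1 without overlap (Itgal and Itgb7), against 25.8%, and 2 of 7 were lower (Itgb1 and Itgb3), against 21.0%. The median log2 fold change of the 7 genes was 0.28 in ZnF1 mutant cells, 0.01 in ZnF4 mutant cells and -0.05 between the mutants, beside -0.002, -0.02 and 0.03 over all tested genes. With 2 libraries per genotype, smaller changes may be missed.

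**Figure D2:**
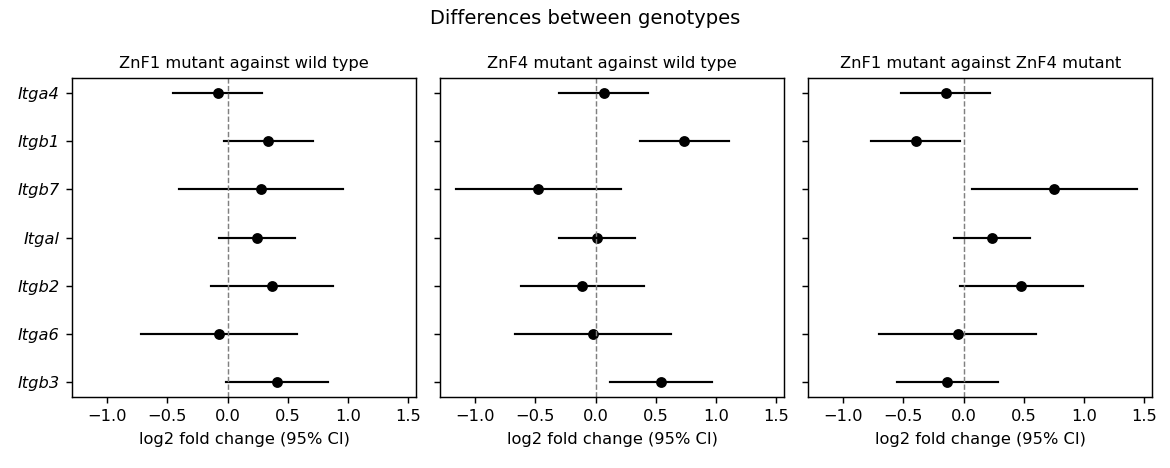
Log2 fold change (horizontal axes, points) with its 95% confidence interval (lines) from limma for the 7 tested integrin genes in the 3 comparisons, where values above 0 mean higher in the genotype named first. The interval of Itgb1 in ZnF4 mutant cells runs from 0.37 to 1.11, and those of Itgb3 in ZnF4 mutant cells and of Itgb7 and Itgb1 between the mutants also leave out 0.

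Itga4 encodes the alpha 4 chain, which pairs either with the beta 1 chain to bind Vcam1 and fibronectin in marrow, or with the beta 7 chain to bind the gut vessel ligand Madcam1. Upstream sequences of these 3 genes are shown because Itgb1 and Itgb7 had the largest fold changes among the 7 of these genes that were tested and Itga4 is their shared partner. They are the 250 bases before the annotated start from RefSeq on GRCm38.p6, written 5′ to 3′ on the strand of the gene, with each CG pair in capitals. Itga4 lies on the plus strand (chr2:79255176-79255425), Itgb1 on the plus strand (chr8:128685404-128685653) and Itgb7 on the minus strand (chr15:102231936-102232185).
Itga4: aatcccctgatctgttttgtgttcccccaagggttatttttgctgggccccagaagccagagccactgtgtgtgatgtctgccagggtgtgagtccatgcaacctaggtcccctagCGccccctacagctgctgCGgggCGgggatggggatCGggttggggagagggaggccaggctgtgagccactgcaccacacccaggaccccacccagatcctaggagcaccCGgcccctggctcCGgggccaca
Itgb1: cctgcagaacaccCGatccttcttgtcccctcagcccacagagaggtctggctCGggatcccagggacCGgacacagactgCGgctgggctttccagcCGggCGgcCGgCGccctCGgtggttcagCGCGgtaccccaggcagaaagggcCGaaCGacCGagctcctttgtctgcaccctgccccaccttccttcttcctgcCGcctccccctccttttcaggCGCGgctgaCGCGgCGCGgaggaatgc
Itgb7: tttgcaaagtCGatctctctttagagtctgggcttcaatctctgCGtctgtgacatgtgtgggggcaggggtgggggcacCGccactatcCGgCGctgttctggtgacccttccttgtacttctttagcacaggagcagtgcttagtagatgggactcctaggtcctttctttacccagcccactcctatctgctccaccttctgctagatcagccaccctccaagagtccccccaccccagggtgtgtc

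The Itgb1 sequence held 21 CG pairs, more than 83.7% of the 32851 promoters in the table, whereas Itga4 held 6 and Itgb7 held 5, against a median of 6. The letters TGGGAA, which contain the core that Ikaros proteins bind, were searched on both strands (TTCCCA on the other) over 300 bases, 250 before and 50 from the start. They were present in 25.6% of all promoters and in 0 of the 5 integrin promoters in the table (Itga4, Itga5, Itgax, Itgb1 and Itgb7). This says only that those letters are not in these windows.

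Itga4 was at 49.6 and 42.0 RPKM in ZnF1 mutant cells, 56.5 and 45.5 RPKM in ZnF4 mutant cells, and 52.2 and 44.8 RPKM in wild type. The 3 pairs overlapped. The log2 fold change was -0.08 in ZnF1 mutant cells (95% CI -0.45 to 0.29, adjusted p = 0.902) and 0.07 in ZnF4 mutant cells (95% CI -0.30 to 0.44, adjusted p = 0.869). In the RefSeq annotation Itga4 overlaps Cerkl, whose own transcript lay between 5.4 and 10.6 RPKM. The strand of the reads is not given, so reads of overlapping transcripts cannot be told apart.

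Itgb1, the beta chain shared by most matrix-binding integrins, had the largest difference between a mutant and wild type among the 7 of the 9 genes that were tested. It was at 18 and 22.8 RPKM in ZnF1 mutant cells, 24.9 and 29.0 RPKM in ZnF4 mutant cells, and 17.0 and 14.9 RPKM in wild type. The means were 20.4 ± 3.39, 26.95 ± 2.90 and 15.95 ± 1.48 RPKM for ZnF1, ZnF4 and wild type (SD, n = 2 each). The ZnF4 libraries lay above all 4 others, and the ZnF1 libraries lay above wild type. Against wild type, the ZnF4 log2 fold change was 0.74 (SE 0.16, 95% CI 0.37 to 1.11, adjusted p = 0.0577), which misses the threshold. The same fold change passed in a fit of only the ZnF4 and wild-type libraries (adjusted p = 0.0287). There 594 genes passed, against 330 with all 6 libraries. The fold change also passed without either ZnF1 library, which is no separate test, as the spread comes from the same libraries. Over all alternatives its adjusted p lay between 0.0287 and 0.347. In the ZnF1 mutant the log2 fold change of Itgb1 was 0.34 (95% CI -0.03 to 0.71, adjusted p = 0.473), and the ZnF1 against ZnF4 difference was -0.40 (95% CI -0.77 to -0.03, adjusted p = 0.214). Without ZnF1 replicate 2, the library with the most granulocyte RNA, the ZnF1 fold change was 0.17, and over all single libraries left out it lay between 0.17 and 0.51. Markers of immature B cells also differed. Of 5 tested, 2 fell in ZnF4 mutant cells, where 3.20% of all tested genes were called. They were Rag1, a recombinase gene (log2 fold change -2.18, adjusted p = 0.0109), and Cd24a (-0.98, adjusted p = 0.0221). In ZnF1 mutant cells 0 passed, and 4 of the 5 fold changes were negative, beside all 5 in ZnF4 mutant cells. That of Cd24a was -0.88 in ZnF1 mutant cells (adjusted p = 0.0977). Between the mutants the difference was 0.10 for Cd24a (adjusted p = 0.790) and 1.62 for Rag1 (0.0247). Cd93 was at -0.94 in ZnF1 and -0.61 in ZnF4 mutant cells (adjusted p = 0.124 and 0.164). The ZnF4 calls of Rag1 and Cd24a were both lost without any single ZnF4 or wild-type library, as were nearly all calls of that comparison. With no filter on low values both were lost too (adjusted p = 0.0757 and 0.0759). That of Cd24a was also lost with quantile normalization (0.0607) and with a term for sex (0.0839). The 5 together summed to 631 and 518 RPKM in ZnF1 mutant cells, 666 and 644 RPKM in ZnF4 mutant cells, and 765 and 820 RPKM in wild type. The part of immature B cells and of granulocytes in the Itgb1 values was not tested. In such sorted samples, fewer cells with a transcript and less of it per cell cannot be told apart.

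Itgb7 varied within genotypes. It was at 68.8 and 61.0 RPKM in ZnF1 mutant cells, 28.6 and 51.0 RPKM in ZnF4 mutant cells, and 66.2 and 43.0 RPKM in wild type. The means were 64.9 ± 5.52, 39.8 ± 15.8 and 54.6 ± 16.4 RPKM for ZnF1, ZnF4 and wild type (SD, n = 2 each). Both ZnF1 libraries lay above both ZnF4 libraries, and each mutant overlapped with wild type. The ZnF4 libraries differed 1.78-fold and the wild-type libraries 1.54-fold. The log2 fold change was 0.28 in ZnF1 mutant cells (95% CI -0.41 to 0.96, adjusted p = 0.786) and -0.48 in ZnF4 mutant cells (95% CI -1.16 to 0.21, adjusted p = 0.446). The ZnF1 mutant exceeded the ZnF4 mutant by 0.75 (SE 0.29, 95% CI 0.07 to 1.44), with an adjusted p of 0.203. Leaving out 1 library moved this difference between 0.34, without ZnF4 replicate 1, and 1.17, without ZnF4 replicate 2. The ZnF4 value against wild type moved in the same way between -0.06, without ZnF4 replicate 1, and -0.89, without ZnF4 replicate 2, and was -0.17 and -0.78 when wild-type replicate 1 or 2 was left out.

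Markers of mature B cells and of plasma cells also differed between libraries. Tnfrsf13c, the BAFF receptor gene, was the 1 of 5 mature B cell markers that fell in ZnF4 mutant cells, where 3.20% of all tested genes were called. Its log2 fold change was -0.83 (adjusted p = 0.0358). The call was lost with the replicate block (0.0624), with no filter (0.0757) and with a term for sex (0.139). It was also lost without any single ZnF4 or wild-type library, as were nearly all calls of that comparison. In ZnF1 mutant cells, 3 of the 5 had a positive fold change and 0 passed; those of Fcer2a and Cr2 were 0.85 and 0.84, and those of Ccr7 and Tnfrsf13c were -0.33 and -0.46. Tnfrsf13c itself was at 336 and 287 RPKM in ZnF1 mutant cells, 243 and 236 RPKM in ZnF4 mutant cells, and 418 and 434 RPKM in wild type. The 6 plasma cell markers summed to 128 and 111 RPKM in ZnF1 mutant cells, 204 and 189 RPKM in ZnF4 mutant cells, and 604 and 122 RPKM in wild type. Of these, Igj alone was at 414 and 1.1 RPKM in wild type. Sdc1, the plasma cell syndecan, was the 1 of 4 tested that fell in ZnF1 mutant cells (log2 fold change -2.24, adjusted p = 0.0347). There 0.271% of all tested genes were called. It was at 0.6 and 0.4 RPKM in ZnF1 mutant cells, 1.6 and 1.7 RPKM in ZnF4 mutant cells, and 5.3 and 3.3 RPKM in wild type. Its call was lost in a fit of only 2 genotypes (adjusted p = 0.235), with no filter (0.209), with quantile normalization (0.0511) and with a term for sex (0.138). It held without ZnF1 replicate 1 and was lost without any of the other 5 libraries. Without any single ZnF4 or wild-type library, no call of that comparison was left. The part of these cells in the Itgb7 values was not tested.

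Itgal and Itgb2 encode the chains of LFA-1, the receptor through which lymphocytes bind Icam1 and Icam2, and both stood at like levels. Itgal was at 68.6 and 67.7 RPKM in ZnF1 mutant cells, 53.1 and 62.9 RPKM in ZnF4 mutant cells, and 61.5 and 53.7 RPKM in wild type. The ZnF1 libraries lay above the other 4. The log2 fold change was 0.24 in ZnF1 mutant cells (95% CI -0.07 to 0.56, adjusted p = 0.552) and 0.01 in ZnF4 mutant cells (95% CI -0.31 to 0.32, adjusted p = 0.986).

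Itgb2 was at 63.4 and 96.0 RPKM in ZnF1 mutant cells, 48.4 and 64.3 RPKM in ZnF4 mutant cells, and 61.3 and 59.2 RPKM in wild type. One library, ZnF1 replicate 2, was far above the others. The log2 fold change was 0.37 in ZnF1 mutant cells (95% CI -0.14 to 0.88, adjusted p = 0.573) and 0.07 without ZnF1 replicate 2. In the ZnF4 mutant it was -0.11 (95% CI -0.62 to 0.40, adjusted p = 0.841). The same library had the most RNA of Itgam, the alpha chain that pairs with Itgb2 on granulocytes and macrophages, with 44.4 RPKM against 7.0 RPKM in ZnF1 replicate 1, 6.5 and 8.0 RPKM in ZnF4 mutant cells, and 5.6 and 6.5 RPKM in wild type. Itgb2l, a mouse paralogue of Itgb2, was at 20.0 RPKM there and between 1.1 and 4.3 RPKM elsewhere. Without ZnF1 replicate 1, so with that library alone for ZnF1, Itgb2l passed against wild type (adjusted p = 0.000876) and against ZnF4 (0.00370), and Itgam against ZnF4 (0.00130). Itgal did not share this pattern, and the ratio of Itgal to Itgb2 was 0.705 in ZnF1 replicate 2 but at least 0.907 in each of the remaining 5 libraries. The 9 monocyte and macrophage markers in the table summed to 437 RPKM in ZnF1 replicate 2 and to between 52.7 and 110 RPKM elsewhere. The part of granulocytes and macrophages in these values was not tested.

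**Figure D3:**
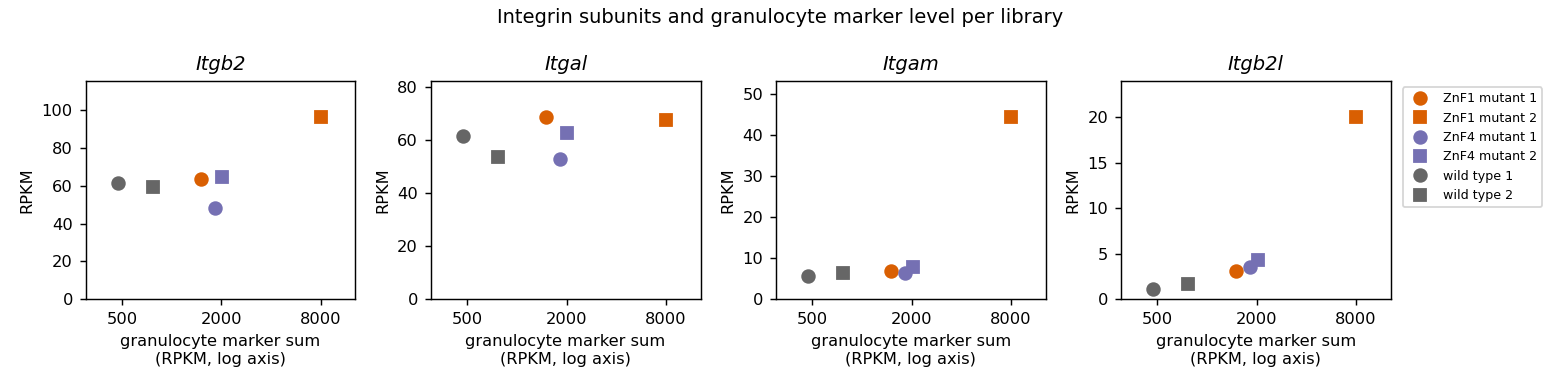
RNA level in RPKM of Itgb2, Itgal, Itgam and Itgb2l (vertical axes, from 0) against the summed RPKM of the 14 granulocyte markers (horizontal axes, log scale), 1 point per library with colours for genotype and circles and squares for replicates 1 and 2. ZnF1 replicate 2, at a marker sum of 8042 RPKM, is highest for Itgb2, Itgam and Itgb2l but not for Itgal.

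Itgax, which encodes the CD11c chain of dendritic cells and some B cells, was the weakest of the 9 genes. It was at 0.3 and 1.0 RPKM in ZnF1 mutant cells, listed at 0 in both ZnF4 libraries, and at 0.6 RPKM in both wild-type libraries. The values are rounded to steps of 0.1 RPKM and the gene was not tested, so no fold change is given. The 6 dendritic cell markers summed to 8.1 and 10.1 RPKM in ZnF1 mutant cells, 7.3 and 8.2 RPKM in ZnF4 mutant cells, and 2.0 and 6.1 RPKM in wild type. Of the 2 that were tested, Cd209a rose in ZnF4 mutant cells (log2 fold change 2.18, adjusted p = 0.00832), where 3.20% of all tested genes were called. The other, Siglech, was at -0.05 in ZnF4 mutant cells (adjusted p = 0.969). Between the mutants Siglech was higher in ZnF1 mutant cells by 1.37 (adjusted p = 0.141), whereas Cd209a was lower (-1.20). The ZnF4 call of Cd209a was lost without any single ZnF4 or wild-type library, as were nearly all calls of ZnF4 against wild type. The part of dendritic cells in the Itgax values was not tested.

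Itga5 and Itga6 encode alpha chains that pair with the beta 1 chain to bind fibronectin and laminins. Itga5 was at 0.3 and 1.3 RPKM in ZnF1 mutant cells, 0.5 RPKM in both ZnF4 libraries, and 0.7 and 1.2 RPKM in wild type. Itga6 was at 7.4 and 3.9 RPKM in ZnF1 mutant cells, 4.9 and 6.4 RPKM in ZnF4 mutant cells, and 5.7 RPKM in both wild-type libraries. The wild-type value of Itga6 lay between the libraries of each mutant. Its log2 fold change was -0.07 in ZnF1 mutant cells (95% CI -0.72 to 0.58, adjusted p = 0.955) and -0.02 in ZnF4 mutant cells (95% CI -0.67 to 0.63, adjusted p = 0.980). The Itga6 interval was wider than that of Itga4, which spanned -0.30 to 0.44 in ZnF4 mutant cells.

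Itgb3 encodes the beta chain that pairs with the alpha v chain to bind vitronectin and osteopontin, and with the alpha IIb chain of platelets to bind fibrinogen. It was at 13.8 and 15.0 RPKM in ZnF1 mutant cells, 16.2 and 15.5 RPKM in ZnF4 mutant cells, and 8.9 and 12.9 RPKM in wild type. These averaged 14.4 ± 0.849, 15.85 ± 0.495 and 10.9 ± 2.83 RPKM for ZnF1, ZnF4 and wild type (SD, n = 2 each). All 4 mutant libraries lay above both wild-type libraries. The log2 fold change was 0.41 in ZnF1 mutant cells (SE 0.18, 95% CI -0.01 to 0.83, adjusted p = 0.439) and 0.54 in ZnF4 mutant cells (SE 0.18, 95% CI 0.12 to 0.96, adjusted p = 0.176). Neither passed. Without wild-type replicate 1, the lower of its pair, it was 0.15 in ZnF1 mutant cells and 0.29 in ZnF4 mutant cells. Both mutants were set against the same wild-type libraries, so their differences are not independent of each other.

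The 14 granulocyte markers were also on the higher side in both mutants, and their part in the Itgb3 values was not tested. Platelet RNA was at or near 0 in all libraries. The 10 megakaryocyte and platelet markers together summed to between 1.3 and 3.4 RPKM, Pf4 stayed at or below 0.6 RPKM, and Itga2b, the platelet partner chain, lay between 0.2 and 1.5 RPKM. Itgav, the other partner, was at 6.4 and 6.2 RPKM in ZnF1 mutant cells, 7.6 and 6.5 RPKM in ZnF4 mutant cells, and 6.3 and 6.5 RPKM in wild type. Itgav thus varied less than Itgb3.

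Within a library, the balance between beta chain transcripts does not depend on the scaling of that library. Itgb1 made up 11% and 11.7% of the summed RPKM of the 4 beta chain genes in ZnF1 mutant cells, 21.1% and 18.1% in ZnF4 mutant cells, and 11.1% and 11.5% in wild type. The ZnF4 libraries were thus separate from the other 4, which lay close together. That closeness depends on the sum, which includes Itgb2. Itgb2 made up 49.3% of it in ZnF1 replicate 2 and between 38.7% and 45.5% elsewhere, which lowers the Itgb1 share in that library. Itgb1 itself was at 22.8 RPKM there, against 17.0 and 14.9 RPKM in wild type. Itgb7 made up 42.0% and 31.3% in ZnF1 mutant cells, 24.2% and 31.9% in ZnF4 mutant cells, and 43.2% and 33.1% in wild type. The ratio of Itgb7 to Itgb1 was 3.82 and 2.68 in ZnF1 mutant cells, 1.15 and 1.76 in ZnF4 mutant cells, and 3.89 and 2.89 in wild type. Both ZnF4 ratios lay below the other 4. With 2 libraries against 2, a two-sided exact permutation test cannot give a p below 0.333, so the shares and ratios are described and not tested.

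**Figure D4:**
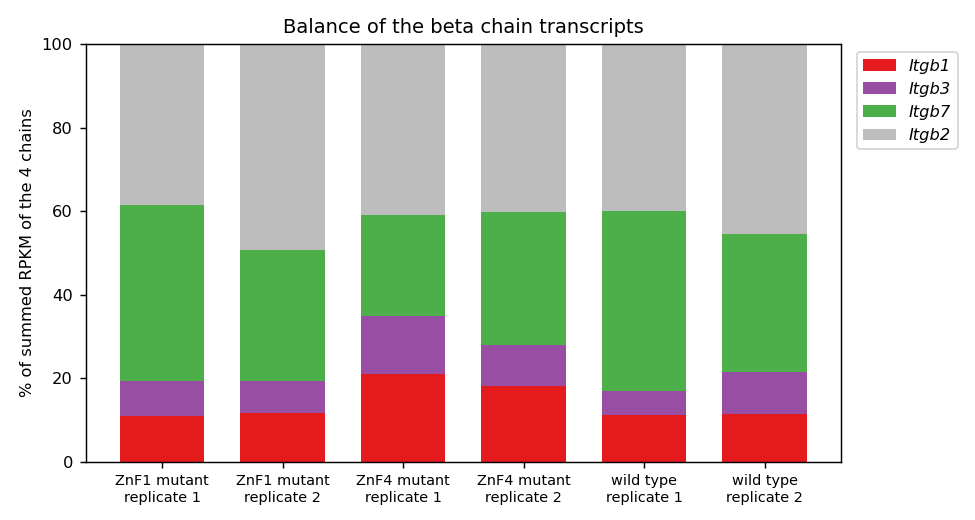
Share of Itgb1, Itgb3, Itgb7 and Itgb2 in the summed RPKM of these 4 genes (vertical axis, percent), 1 bar per library, with mutants left of wild type. The Itgb1 share is 21.1% and 18.1% in ZnF4 mutant cells and between 11% and 11.7% in the other libraries.

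The alpha chains were set against their beta chains in the same way. The ratio of Itga4 to Itgb1 was 2.76 and 1.84 in ZnF1 mutant cells, 2.27 and 1.57 in ZnF4 mutant cells, and 3.07 and 3.01 in wild type, so every mutant library lay below wild type. The ratio of Itga4 to the sum of its beta partners Itgb1 and Itgb7 was 0.571 and 0.501 in ZnF1 mutant cells, 1.06 and 0.569 in ZnF4 mutant cells, and 0.627 and 0.774 in wild type. The ZnF4 pair enclosed the wild-type pair, and the ZnF1 pair lay below it.

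Of the other 18 integrin subunit genes in the table, 14 stayed at or below 1.5 RPKM in every library, and 4 were tested: Itga9, Itgam, Itgav and Itgb2l. None passed, and 7 never exceeded 0.1 RPKM in any library. Itga9, an alpha chain that pairs with the beta 1 chain, was at 1.2 and 0.8 RPKM in ZnF1 mutant cells, 1.6 and 1.2 RPKM in ZnF4 mutant cells, and 2.8 and 4.1 RPKM in wild type. Its log2 fold change was -1.39 in ZnF1 mutant cells (SE 0.28, adjusted p = 0.118) and -1.04 in ZnF4 mutant cells (SE 0.28, adjusted p = 0.105). Leaving out 1 library moved the ZnF1 fold change between -1.63 and -1.15. The ZnF4 fold change passed in a fit of only ZnF4 and wild-type libraries (adjusted p = 0.0473), where 594 genes passed against 330 with all 6 libraries. All 4 mutant libraries of Itga9 lay below wild type, the opposite side from Itgb1.

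Integrins bind their ligands firmly only after talin and kindlin attach to the beta tail, a step driven by the GTPase Rap1. Of 20 genes of activators, inhibitors and tail-binding proteins, 15 were tested, and 1 passed. It did so between the mutants, where 4.78% of all tested genes were called. This was Rasgrp2, an exchange factor that switches Rap1 on, with more RNA in ZnF1 than in ZnF4 cells. It was at 173 and 163 RPKM in ZnF1 mutant cells, 93.4 and 90.3 RPKM in ZnF4 mutant cells, and 141 and 103 RPKM in wild type. The mutants lay on opposite sides of wild type, with a direct log2 difference of 0.87 (SE 0.17, adjusted p = 0.0327). Neither mutant passed against wild type (0.48, adjusted p = 0.326 in ZnF1 mutant cells, and -0.39, adjusted p = 0.289 in ZnF4 mutant cells). The direct call was lost without any single ZnF1 or ZnF4 library, and the difference stayed between 0.83 and 0.91. Without either ZnF4 library nearly all calls between the mutants were lost. The part of granulocyte RNA, which was highest in ZnF1 replicate 2, was not tested.

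Rassf5, an effector of Rap1 that binds Itgal, and Skap2, an adaptor, were named by the same rule without passing. Rassf5 was at 74.9 and 75.2 RPKM in ZnF1 mutant cells, 48.1 and 54.2 RPKM in ZnF4 mutant cells, and 73.8 and 64.8 RPKM in wild type (log2 fold change -0.43 in ZnF4 mutant cells, adjusted p = 0.131). Skap2 was at 57.7 and 69.2 RPKM in ZnF1 mutant cells, 59.5 and 59.6 RPKM in ZnF4 mutant cells, and 39.2 and 42.1 RPKM in wild type. All 4 mutant libraries of Skap2 lay above wild type (log2 fold change 0.63, adjusted p = 0.124 in ZnF1 mutant cells, and 0.55, adjusted p = 0.0806 in ZnF4 mutant cells). The ZnF4 fold change passed in a fit of only ZnF4 and wild-type libraries (adjusted p = 0.0477), where 594 genes passed against 330 with all 6 libraries. With ZnF1 replicate 2, the library with the most granulocyte RNA, as the only ZnF1 library, the ZnF1 fold change was 0.76. Of the 15 fold changes, 13 were negative in ZnF4 mutant cells, and 13 of the differences between the mutants were positive. The list also holds genes that restrain integrin activation, such as Sipa1 (-0.17 in ZnF4 mutant cells) and Sharpin (0.23). These counts are thus not those of activators alone. Over the 15 tested genes the median log2 fold change was 0.09 in ZnF1 mutant cells, -0.30 in ZnF4 mutant cells and 0.35 between the mutants, beside -0.002, -0.02 and 0.03 over all tested genes.

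Among 22 genes of the adhesion complex and of signalling from bound integrins, 21 were in the table and 16 were tested. Of these, 1 passed, Vav3 in ZnF4 mutant cells, where 3.20% of all tested genes were called. Vav3, a signalling protein gene of the Vav family, was at 5.4 and 5.9 RPKM in ZnF1 mutant cells, 8.7 and 7.6 RPKM in ZnF4 mutant cells, and 3.4 and 2.8 RPKM in wild type. The 3 genotypes did not overlap. It rose in ZnF4 mutant cells by 1.27 on the log2 scale (SE 0.17, adjusted p = 0.0113), and the ZnF1 difference of 0.78 did not pass (adjusted p = 0.141). The ZnF4 call was lost without any single ZnF4 or wild-type library, as were nearly all calls of that comparison. Ptk2, the focal adhesion kinase gene, was at 2.4 and 2.7 RPKM in ZnF1 mutant cells, 4.9 and 6.0 RPKM in ZnF4 mutant cells, and 2.5 and 1.0 RPKM in wild type. It did not pass (ZnF1 against ZnF4 difference -0.96, adjusted p = 0.155). Actn1, an actin crosslinker of adhesion sites, was at 6.5 and 16.9 RPKM in ZnF1 mutant cells, 8.0 and 8.4 RPKM in ZnF4 mutant cells, and 3.1 and 3.3 RPKM in wild type, and its log2 fold change of 1.58 in ZnF1 mutant cells did not pass (adjusted p = 0.171). Actn1 was highest in ZnF1 replicate 2, the library with the most granulocyte RNA, whose part was not tested. With that library alone for ZnF1 the log2 fold change of Actn1 was 2.23, and without it 0.92.

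Of 18 ligand genes, 7 were tested. Spp1, which encodes osteopontin, a ligand of the beta 3 and alpha 4 integrins, was at 7.2 and 5.1 RPKM in ZnF1 mutant cells, 1.7 RPKM in both ZnF4 libraries, and 1.1 and 2.3 RPKM in wild type. ZnF1 cells exceeded ZnF4 cells by 1.58 on the log2 scale (SE 0.30, adjusted p = 0.0318), and the difference of 1.63 from wild type did not pass (adjusted p = 0.10). Spp1 was the only 1 of the 7 to pass, and 4.78% of all tested genes were called between the mutants. The call between the mutants was lost without ZnF1 replicate 1 and without either ZnF4 library. Without either ZnF4 library nearly all calls between the mutants were lost. The part of macrophage RNA, which was highest in ZnF1 replicate 2, was not tested. Vcam1 was at 8.7 and 7.8 RPKM in ZnF1 mutant cells, 4.3 and 2.4 RPKM in ZnF4 mutant cells, and 5.6 and 1.1 RPKM in wild type (ZnF1 log2 fold change 1.48, adjusted p = 0.358). Icam1, the LFA-1 ligand, was at 42.1 and 38.1 RPKM in ZnF1 mutant cells, 28.3 and 31.0 RPKM in ZnF4 mutant cells, and 31.2 and 38.1 RPKM in wild type (ZnF4 log2 fold change -0.22, adjusted p = 0.470). The median log2 fold change of the 7 ligand genes was 0.79 in ZnF1 mutant cells, -0.21 in ZnF4 mutant cells and 1.23 between the mutants. Over all tested genes the medians were -0.002, -0.02 and 0.03. The ZnF1 value of the list is that of Thbs1, which was highest in ZnF1 replicate 2, the library with the most granulocyte and macrophage RNA. The value between the mutants is that of Vcam1, below those of Spp1, Thbs1 and Fn1. Of these, Thbs1 and Fn1 were highest in the same library. Fn1, the fibronectin gene of the same list, was at 1.9 and 19.6 RPKM in ZnF1 mutant cells, 1.4 and 0.8 RPKM in ZnF4 mutant cells, and 1.1 and 1.8 RPKM in wild type. Thbs1, a matrix protein gene, was at 0.6 and 4.8 RPKM in ZnF1 mutant cells, 0.2 and 0.3 RPKM in ZnF4 mutant cells, and 1.0 and 0.8 RPKM in wild type (ZnF4 log2 fold change -0.90, adjusted p = 0.522).

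Tetraspanins and other membrane proteins sit beside integrins in the membrane, and none of the 9 tested among 10 such genes passed. Cd9, a tetraspanin of B1 and marginal zone B cells that associates with beta 1 integrins, was at 7.1 and 15.8 RPKM in ZnF1 mutant cells, 13.6 and 17.0 RPKM in ZnF4 mutant cells, and 7.1 and 6.0 RPKM in wild type. Its log2 fold change in ZnF4 mutant cells was 1.16 (SE 0.33, adjusted p = 0.121). It passed in a fit of only ZnF4 and wild-type libraries (adjusted p = 0.00979), where 594 genes passed against 330 with all 6 libraries. With a term for sex it was 0.81 (adjusted p = 0.206). In ZnF1 mutant cells the log2 fold change of Cd9 was 0.66 (adjusted p = 0.499). Without ZnF1 replicate 2, the library with the most granulocyte RNA, that value was 0.11. The part of granulocyte RNA in the Cd9 values was not tested. Cd47, a partner of beta 3 integrins, was at 115 and 92.4 RPKM in ZnF1 mutant cells, 82.9 and 77.2 RPKM in ZnF4 mutant cells, and 104 and 87.6 RPKM in wild type (ZnF1 against ZnF4 difference 0.36, adjusted p = 0.247).

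**Figure D5:**
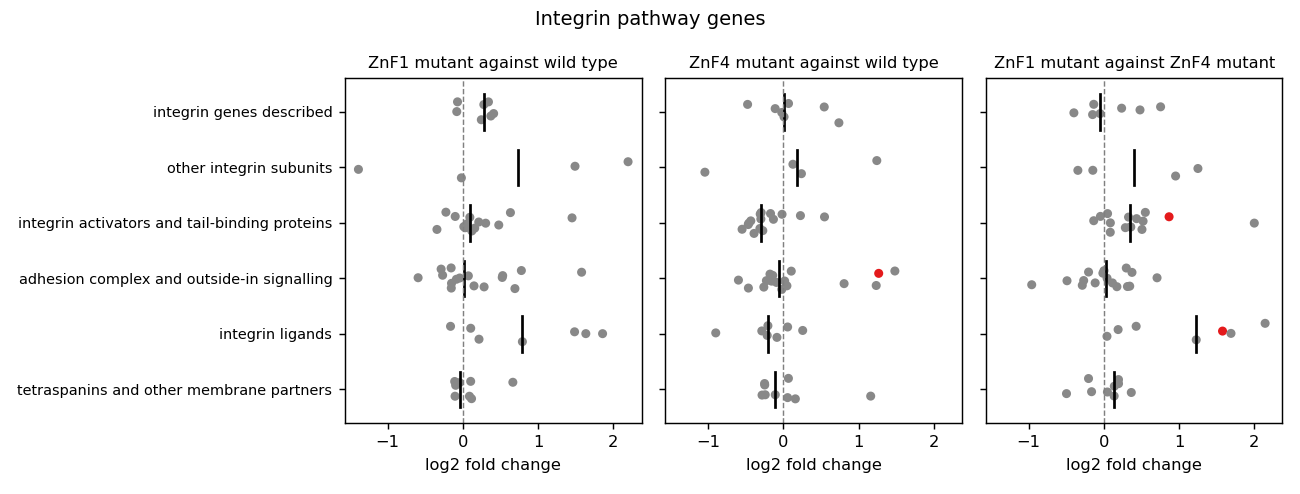
Log2 fold change (horizontal axes) of each tested gene of the integrin genes and of 5 lists of related genes (rows) in the 3 comparisons, where red points passed at an adjusted p under 0.05 and black bars are list medians. The points that passed are Vav3 in ZnF4 mutant cells and Rasgrp2 and Spp1 between the mutants.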

How the data were processed

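RNA of sorted IgM-positive marrow B cells had been poly(A)-enriched and sequenced by the submitters, with libraries made by an Illumina TruSeq kit per the labels' protocols. The authors deposited RPKM values of 26531 RefSeq transcripts on the mouse build mm9, rounded to 0.1; the submitters' processing notes name TopHat and bedtools, with versions not given in the sources used here. The transcript length in the table is the authors' other deposited column, and 1 row without values was left out. Whole reads could not be recovered: below a length of 150 bases, no read total brought over 61.0% of values within 0.05 of a whole read. Depth is therefore unknown, and no counting interval is given.

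For each gene name the row with the highest mean stood for the gene, and names with a mean of at least 1 RPKM were tested. The log2(RPKM + 0.5) values of the 6 libraries were fitted by genotype in limma 3.58.1 (R 4.3.3) (intensity trend, two-sided moderated test, 3 residual degrees of freedom before moderation), with Benjamini-Hochberg adjustment over all tested genes. Confidence intervals at 95% use the moderated error. The fit was tested on simulated data. The members and lists were chosen with earlier results of these data known. Of 88 genes in the related lists, 87 were in the table and 51 were tested. From each list and comparison, up to 4 genes that passed were named, or up to 2 with the smallest p where none did; other genes stand as partners or markers. A rule for genes with a pattern like that of a member applied only to members that passed, of which there were 0. Protein sequences were not used here. Alternatives were the pseudocount, the filter, quantile normalization, the libraries in the fit, terms for replicate number and sex (from Xist and Ddx3y), the longest transcript and leaving out each library.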

Additional observations from a re-analysis of the deposited data

Results flagged for a closer look

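Among the genes named here, 4 differed between the mutants by the direct comparison, each with libraries that did not overlap. They are listed because they passed. Of all tested genes, 4.78% were called between the mutants, 25.8% were higher in ZnF1 without overlap and 21.0% were lower. Spp1 was higher in ZnF1 than in ZnF4 cells by 1.58 on the log2 scale, Rasgrp2 by 0.87 and Rag1 by 1.62, and Cd209a was lower in ZnF1 than in ZnF4 cells (-1.20). Rag1 was at 12.3 and 9.2 RPKM in ZnF1 mutant cells and 4.4 and 2.2 RPKM in ZnF4 mutant cells. The direct call of Cd209a was lost without any single library and in the fit of only 2 genotypes (adjusted p = 0.0548). It was also lost with no filter (0.0668), with a pseudocount of 0.1 (0.0821) and with the term for sex (0.0616). That of Rag1 was lost without either wild-type or either ZnF4 library, in the fit of only 2 genotypes (0.0710) and with no filter (0.0908). Without either ZnF4 library nearly all calls between the mutants were lost.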

How the results depend on the processing

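None of the 7 tested genes among the 9 integrin genes passed under any alternative in ZnF1 mutant cells or between the mutants. In the ZnF4 mutant 1 passed, Itgb1, in the fit of only those 2 genotypes, and the leave-one-out counts ranged from 0 to 1. Of 315 integrin fold changes under alternatives, 295 kept their direction and side of the threshold, 3 passed (all Itgb1), and 17 small ones changed sign. With the term for sex these were Itga4 in ZnF1 mutant cells (0.054), Itga6 in the ZnF1 (0.050) and ZnF4 mutant (0.10) and Itgal in ZnF4 mutant cells (-0.048). Leave-one-out ranges that crossed 0 were, in ZnF1 mutant cells, -0.20 to 0.036 for Itga4, -0.49 to 0.35 for Itga6, -0.031 to 0.59 for Itgb7 and -0.044 to 0.27 for Cd47. In the ZnF4 mutant they were -0.087 to 0.22 for Itga4, -0.20 to 0.15 for Itga6, -0.11 to 0.13 for Itgal and -0.31 to 0.093 for Itgb2. Between the mutants they were -0.30 to 0.0045 for Itga4, -0.47 to 0.37 for Itga6, -1.05 to 0.053 for Cd9, -0.041 to 2.54 for Itgam and -0.30 to 2.21 for Itgb2l. Counts over all genes moved more. In the ZnF1 mutant, 28 genes passed by limma (1232 at an unadjusted p under 0.05), 13 with quantile normalization, and 0 with no filter (1596 unadjusted), with the fit of only 2 genotypes (1053) or with the term for sex (863); leaving out 1 library gave 512 without ZnF1 replicate 1, 7 without ZnF1 replicate 2 and 0 without any of the other 4 (609 to 1060 unadjusted). In the ZnF4 mutant, 330 passed, 594 in the fit of only 2 genotypes, 212 at a mean of at least 5 RPKM, 189 with no filter and 171 with the term for sex; leaving out 1 library gave 591 and 585 without a ZnF1 library, 0 without either ZnF4 library (1551 and 1219 unadjusted), and 11 and 3 without a wild-type library. Between the mutants, 493 passed, 249 in the fit of only 2 genotypes and 309 with no filter; leaving out 1 library gave 814 without ZnF1 replicate 1, 352 without ZnF1 replicate 2, 0 and 2 without a ZnF4 library (1689 unadjusted for the 0), and 259 without either wild-type library. The cause was not tested. Replicate numbers were not used as pairs in the fit by genotype, and whether they mark a shared batch is not known. The correlation of replicate differences was 0.21 between the mutants, 0.28 between ZnF1 and wild type and -0.033 between ZnF4 and wild type. These values cannot decide it. With the replicate block 27, 327 and 529 genes passed in ZnF1 mutant cells, in ZnF4 mutant cells and between the mutants, and 0 of the 7 did. The calls of Rasgrp2 and Spp1 between the mutants were lost with no filter (adjusted p = 0.0804 and 0.0914), and that of Rasgrp2 with the term for sex (0.0525). The longest transcript row left every integrin value as it was, since each gene had 1 row. The unknown depth and rounding to 0.1 RPKM limit what can be said of Itga5 and Itgax.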
